A study of Homo sapiens with 21 samples.

Results

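Genes of the nuclear lamina and of chromatin architecture were followed after DNA double-strand breaks and oxidative stress: the lamin genes LMNA, LMNB1 and LMNB2, the lamin-binding membrane protein genes LBR and TMPO, and the high mobility group box genes HMGB1, HMGB2 and HMGB3. They were chosen by symbol as genes linked to senescence, with earlier results of these data known. All 8 were found among the 23368 genes listed and the 19694 genes tested. RNA was sequenced from hTERT-HPNE, a nontransformed human pancreatic cell line immortalized with the telomerase gene, as 21 libraries, 3 biological replicates for each of 7 groups. Cells of 1 group were left untreated and collected at 0 h, and the others were collected 4, 8 or 24 h after the oxidant H2O2 at 300 μM or after neocarzinostatin (NCS), a radiomimetic drug that cuts DNA, at 400 ng/ml. All groups shared the parental line and the same medium with EGF and puromycin, which was replaced at treatment. The untreated libraries came from 0 h alone, so the effects of treatment and of time after the medium change cannot be told apart.

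The nuclear lamina is a meshwork of lamin filaments under the inner nuclear membrane that holds heterochromatin at the nuclear edge. LMNA encodes the A-type lamins A and C, found mainly in differentiated and mesenchymal cells, and LMNB1 and LMNB2 encode the B-type lamins, which stay attached to the membrane through a farnesyl group. LBR and the LAP2 proteins encoded by TMPO tether lamins and chromatin to the membrane, and HMGB proteins bend DNA and loosen nucleosomes. Low lamin B1 and low nuclear HMGB2, and the release of HMGB1 from the nucleus, are widely used as signs of cellular senescence.

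The values are rLog values, normalized counts on a log2 scale that the authors computed with DESeq2 over all libraries, so that a difference of 1 is a doubling. The transformation shrinks differences and keeps no read counts, and sequencing depth is therefore unknown. Library medians lay between 7.14 and 7.19. The second H2O2 library at 8 h stood apart: its mean distance to the rest of its group was 14.9, against 9.28 to 13.3 in the other 20 libraries, and the 8 h differences of H2O2 from untreated cells are therefore also given without it. The line's markers were present, with mean rLog values of 17.0 for VIM, 13.7 for CD44 and 14.0 for TERT, which the line carries as a transgene. At 24 h, 4 of 6 markers of the line were lower in H2O2, namely NES (-0.28), VIM (-0.26), TERT (-0.38) and COL1A1 (-0.38), and CD44 was higher (0.12). In NCS, VIM (-0.16) and TERT (-0.41) were lower. Several markers that define pancreatic duct cells were near the bottom of the scale, with KRT19 at 0.60, CFTR at -1.34 and EPCAM at -1.76, while KRT18 stood at 11.6, KRT8 at 7.93, KRT7 at 6.93 and SOX9 at 6.07. At 24 h, 1 of 9 duct markers (KRT18) was lower in both treatments. Of the 9, 3 (KRT7, KRT8 and SOX9) were higher in H2O2 and 1 (KRT8) in NCS. None of 4 acinar and none of 3 islet markers passed the test in either treatment. CD68 was the single one of 4 blood and endothelial markers to rise, by 0.17 in H2O2 and 0.52 in NCS. Beside these marker counts, 19.9% of all genes tested were lower and 20.2% higher at 24 h in H2O2. In NCS, 18.4% were lower and 19.6% higher. The marker lists are short, and no result about the cell type is drawn from these counts.

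A single limma fit of the 7 groups tested the differences, and the p-values were adjusted after Benjamini and Hochberg over all genes tested. Each gene had 1 estimate of spread from all 7 groups, so the second H2O2 library at 8 h also enters the tests at other times. A gene changed if its adjusted p-value was under 0.05, and it was called differentially expressed if the log2 difference was also over 1. Since rLog differences are shrunken, that limit is strict. With 3 libraries on each side, the two-sided exact permutation test of one value has 0.1 as its smallest p.

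All of the genes but LMNA were lower at 24 h in both treatments. In the annotation (GENCODE v29, GRCh38), LMNA lies on chromosome 1 at 156082573 to 156140089, LMNB1 on chromosome 5 at 126776623 to 126837020, and LMNB2 on chromosome 19 at 2427638 to 2456996. LBR lies on chromosome 1 at 225401502 to 225428925, and TMPO on chromosome 12 at 98515512 to 98550379. HMGB1 lies on chromosome 13 at 30456704 to 30617597, HMGB2 on chromosome 4 at 173331695 to 173335125, and HMGB3 on chromosome X at 150980509 to 150990775, so the genes stand at 8 separate loci.

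Upstream sequence from RefSeq (GRCh38.p14) with a start within 100 bases of the start of the main GENCODE transcript was matched for 6 of the 8 genes, all but LMNA and HMGB2. The 250 bases before each start were searched on both strands for 3 short motifs that many cell cycle promoters hold. These were the CCAAT box, which binds NF-Y, the CHR element spelled TTTGAA or TTCGAA, and E2F sites spelled TTTCCCGC, TTTGGCGC, TTTCGCGC or TTTGCCGC. CCAAT was present in 4 of 6 genes, against 32.0% of the 35116 RefSeq starts. CHR letters were present in 2 of 6, against 14.3% of starts, and the E2F letters in 0 of 6, against 2.79%. In LMNB2, LBR, HMGB1, HMGB3 and TMPO the 250 bases overlapped an annotated exon of the gene itself, and in LMNB1 they did not. The HMGB1 CCAAT box at 28 bases from the RefSeq start lies inside the main GENCODE transcript, which starts at 30465965. The region of LMNB1, the gene with the deepest fall, is shown with its CCAAT box on the opposite strand in capitals as ATTGG.

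LMNB1 upstream region, chr5:126776886-126777135, plus strand: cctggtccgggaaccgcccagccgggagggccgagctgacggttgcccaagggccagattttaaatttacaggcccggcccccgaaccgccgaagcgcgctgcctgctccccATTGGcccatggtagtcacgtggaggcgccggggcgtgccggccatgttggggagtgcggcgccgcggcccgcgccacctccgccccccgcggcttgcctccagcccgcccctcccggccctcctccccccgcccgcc

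The other matches are shown, 5′ to 3′ on the strand of the gene, with the motif in capitals and its distance to the RefSeq start counted from its first base. They let the spacing be compared. HMGB1, HMGB3 and TMPO each held several CCAAT boxes in the gene's own direction within 144 bases of the RefSeq start. LMNB1 held 1 box, on the opposite strand.

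LMNB2 CHR at 246 bases, chr19:2457188-2457209, minus strand: gttcTTTGAAcacgttttgagg
HMGB1 CCAAT at 103 bases, chr13:30466023-30466051, minus strand: ccccggagacagCCAATagcaaacgggct
HMGB1 CCAAT at 59 bases, chr13:30465979-30466007, minus strand: ggaggtatcgggCCAATgagcgagccccg
HMGB1 CCAAT at 28 bases, chr13:30465948-30465976, minus strand: agttggcggtagCCAATaggagccgcgct
HMGB3 CHR at 172 bases, chrX:150983151-150983180, plus strand: cgggtcgttctgTTTGAAtgaatgatccca
HMGB3 CCAAT at 144 bases, chrX:150983179-150983207, plus strand: cagcagccgcgcCCAATgggcgtccacgc
HMGB3 CCAAT at 101 bases, chrX:150983222-150983250, plus strand: tgaggcccgcagCCAATggccaggcgagg
HMGB3 CCAAT at 55 bases, chrX:150983268-150983296, plus strand: agagcccgctggCCAATcaggcggctctc
TMPO CCAAT at 64 bases, chr12:98515514-98515542, plus strand: cgagccgtctcgCCAATcaccgccgcgct
TMPO CCAAT at 32 bases, chr12:98515546-98515574, plus strand: tcccgtcgcccgCCAATggcggcgcgcgt

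LMNA hardly moved. In untreated cells its rLog values were 14.39, 14.48 and 14.46. The H2O2 libraries held 14.55, 14.49 and 14.49 (4 h), 14.48, 14.39 and 14.51 (8 h) and 14.43, 14.40 and 14.33 (24 h). The NCS libraries held 14.57, 14.57 and 14.53 (4 h), 14.46, 14.47 and 14.44 (8 h) and 14.30, 14.34 and 14.33 (24 h). The H2O2 libraries at 8 h and 24 h overlapped the untreated ones, and in the order of the 7 group means every group overlapped its neighbour. By 24 h LMNA differed from untreated cells by -0.05 (SE 0.03, adjusted p = 0.187) in H2O2 and by -0.12 (SE 0.03, adjusted p = 0.0037) in NCS. With library medians aligned, the difference at 24 h in H2O2 was -0.07 with an adjusted p of 0.035. At 4 h the difference was 0.07 (adjusted p = 0.080) in H2O2 and 0.11 (adjusted p = 0.016) in NCS, and at 8 h it was 0.02 in H2O2 (0.05 without the second library) and 0.01 in NCS, neither of which passed. The rise at 4 h in NCS was lost with quantile normalization (adjusted p = 0.148) and without untreated replicate 1 (0.103), NCS replicate 1 (0.059) or NCS replicate 2 (0.067).

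LMNB1 fell more than any of the other 7 genes at 24 h. Its values in untreated cells were 10.49, 10.60 and 10.51. After H2O2 they were 9.65, 9.69 and 9.64 (4 h), then 9.19, 9.62 and 9.13 (8 h) and then 8.08, 8.09 and 8.09 (24 h). After NCS they were 9.68, 9.76 and 9.74 (4 h), then 9.12, 9.13 and 9.10 (8 h) and then 7.82, 7.87 and 7.95 (24 h). No treated library reached the untreated range, and the 24 h libraries lay below every earlier one. The difference at 24 h was -2.45 (SE 0.08, adjusted p = 2.77e-14) in H2O2, a 5.45-fold fall on this scale, and -2.65 (SE 0.08, adjusted p = 8.74e-15) in NCS, a 6.30-fold fall. Among all 19694 genes, this fall ranked 3 from the deepest in H2O2 and 4 in NCS. At 8 h in H2O2 the difference was -1.22 with all libraries and -1.37 (SE 0.04) without the second library, whose value of 9.62 lay nearer to the 4 h group than to the other 8 h libraries. In bulk RNA, fewer cells with a transcript and less transcript per cell cannot be told apart.

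LMNB2, the other B-type lamin gene, fell less, and less of its 24 h difference was present at 4 h. That share was 13.5% in H2O2 and 23.8% in NCS, against 35.7% and 30.5% for LMNB1. At 8 h it was 54.2% and 58.2%, against 49.9% and 53.5% for LMNB1. Without the second library, the H2O2 shares at 8 h were 58.9% and 56.1%. The LMNB2 values were 12.78, 12.87 and 12.84 in untreated cells, 11.72, 11.64 and 11.68 at 24 h after H2O2 and 11.62, 11.63 and 11.63 at 24 h after NCS. At 4 h all libraries of both treatments, between 12.48 and 12.68, already lay under the untreated range. The difference deepened from -0.15 at 4 h (SE 0.04, adjusted p = 0.0021) to -0.62 at 8 h (-0.68 without the second library) and -1.15 at 24 h in H2O2. In NCS it was -0.29, -0.70 and -1.20 at the same times. Within libraries, LMNB1 fell further than LMNB2 by 1.29 (SE 0.03) at 24 h in H2O2 and by 1.45 (SE 0.04) in NCS, and treated and untreated libraries did not overlap in this quantity (two-sided exact permutation p = 0.1, the smallest that 3 against 3 allows).

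**Figure D1:**
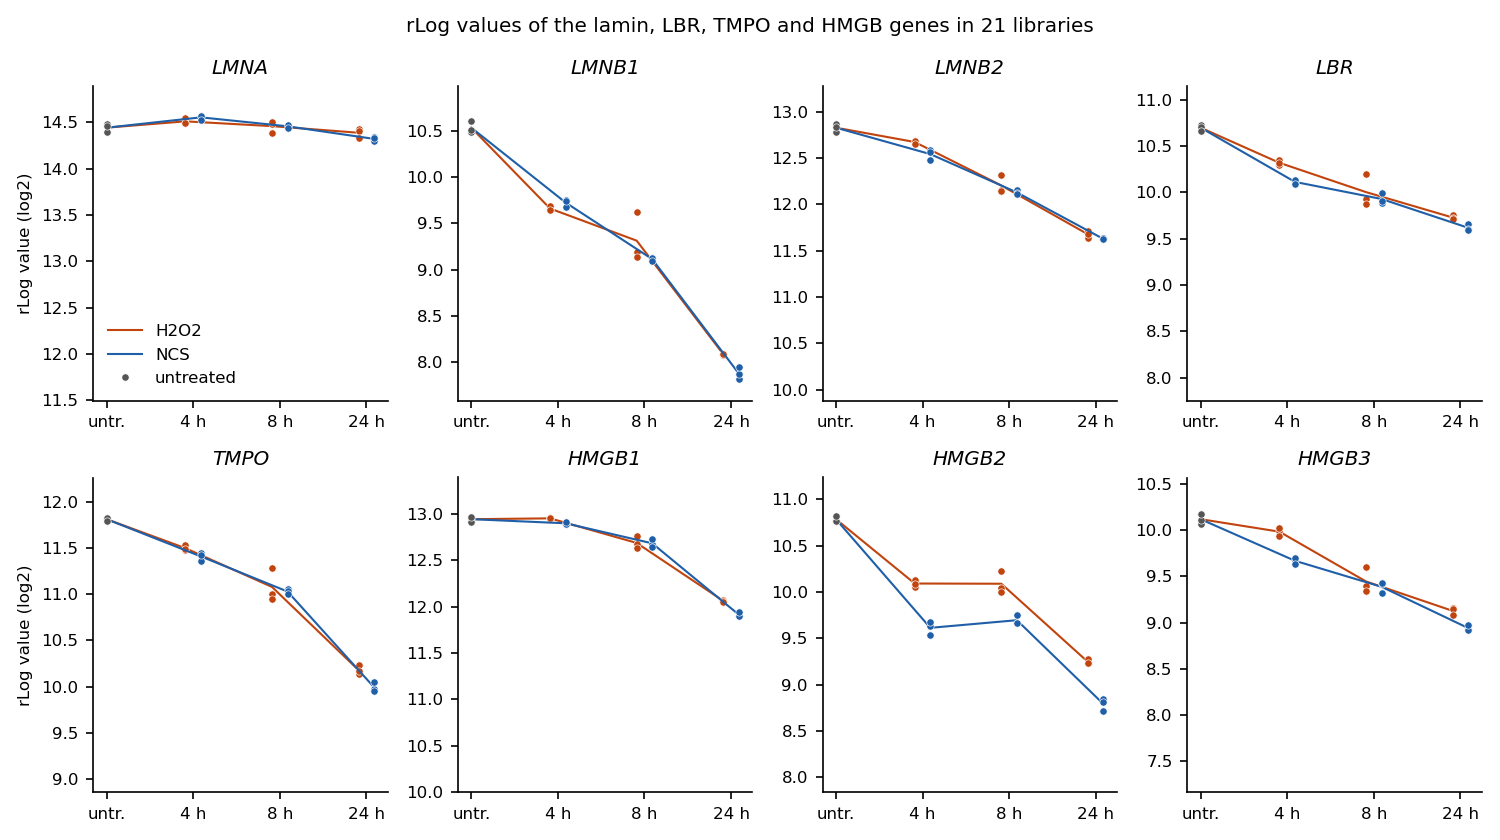
rLog value (log2, vertical axis, the same span of units in each panel) of each gene in each of the 21 libraries by time after treatment (horizontal axis, evenly spaced by group). Points are single libraries, grey for untreated, orange for H2O2 and blue for NCS, and lines join the group means. LMNA stays between 14.30 and 14.57, LMNB1 drops from 10.49 or more to 8.09 or less, and 1 of the 3 H2O2 libraries at 8 h lies above the others in the 7 falling genes.

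LBR, a membrane protein that binds lamin B and heterochromatin and also carries sterol reductase activity, fell early. Its values were 10.72, 10.71 and 10.66 in untreated cells. They were 10.35, 10.29 and 10.31 at 4 h after H2O2 and 10.11, 10.14 and 10.09 at 4 h after NCS. By 24 h they were 9.76, 9.72 and 9.71 after H2O2 and 9.65, 9.60 and 9.59 after NCS. The treated libraries lay under the untreated range at every time. The difference was -0.38, -0.70 and -0.97 (SE 0.06) at 4, 8 and 24 h in H2O2 and -0.59, -0.77 and -1.08 in NCS. At 4 h, 39.1% of the 24 h difference was already present in H2O2 and 54.2% in NCS. Without the second library, the 8 h difference in H2O2 was -0.80.

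TMPO, which encodes the LAP2 isoforms that bind lamins and the chromatin protein BAF, showed the deepest 24 h fall after LMNB1 in H2O2. Its values were 11.82, 11.82 and 11.79 in untreated cells, 10.23, 10.14 and 10.17 at 24 h after H2O2 and 9.98, 10.05 and 9.95 at 24 h after NCS. The difference was -0.31, -0.73 and -1.63 (SE 0.06, adjusted p at 24 h = 5.15e-14) in H2O2 and -0.40, -0.78 and -1.82 (adjusted p at 24 h = 1.29e-14) in NCS. These were falls of 3.09-fold and 3.52-fold at 24 h. At 4 h, 19.2% of the 24 h difference was present in H2O2 and 22.2% in NCS. The 8 h difference in H2O2 was -0.83 without the second library. The antisense gene TMPO-AS1 overlaps the start of TMPO, and the strand setting of the counting is not given in the sources used here, so reads from the overlap cannot be assigned with certainty.

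HMGB1, a DNA-bending protein that acts as a danger signal outside the cell, fell late. Its values were 12.95, 12.92 and 12.97 in untreated cells and 12.96, 12.95 and 12.96 at 4 h after H2O2, which lay inside the untreated range. At 24 h they were 12.08, 12.07 and 12.05 after H2O2 and 11.90, 11.90 and 11.94 after NCS, all under every earlier library. The difference at 4 h was 0.01 (adjusted p = 0.852) in H2O2 and -0.04 (adjusted p = 0.344) in NCS. By 8 h it was -0.26 in each treatment (adjusted p = 5.16e-07 in H2O2 and 7.59e-07 in NCS), or -0.29 in H2O2 without the second library. At 24 h it was -0.88 (SE 0.03, adjusted p = 1.27e-14) in H2O2 and -1.03 (SE 0.03, adjusted p = 1.58e-15) in NCS. The values at 8 h amounted to 29.1% of the 24 h difference in H2O2 (33.1% without the second library) and 25.3% in NCS.

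HMGB2, an HMGB protein of proliferating cells, fell at once and more deeply after NCS. Its values in untreated cells were 10.77, 10.76 and 10.82. The H2O2 libraries stood at 10.13, 10.05 and 10.08 (4 h), 10.04, 10.23 and 10.00 (8 h) and 9.23, 9.27 and 9.23 (24 h). The NCS libraries stood at 9.54, 9.63 and 9.67 (4 h), 9.66, 9.75 and 9.67 (8 h) and 8.72, 8.84 and 8.81 (24 h). At each time all NCS libraries lay under all H2O2 libraries, and in both treatments the 4 h and 8 h groups overlapped. The difference from untreated cells was -0.69 at 4 h, -0.70 at 8 h (-0.77 without the second library) and -1.54 (SE 0.05, adjusted p = 2.47e-14) at 24 h in H2O2. In NCS it was -1.17 at 4 h, -1.09 at 8 h and -1.996 (SE 0.05, adjusted p = 1.07e-15) at 24 h, a 3.99-fold fall. From 4 h to 8 h the level was held, with a difference of -0.0024 (SE 0.05, adjusted p = 0.975) in H2O2 and 0.08 (SE 0.05, adjusted p = 0.372) in NCS, and -0.07 (adjusted p = 0.185) in H2O2 without the second library. Within libraries, HMGB2 fell further than HMGB1 by 0.66 (SE 0.02) at 24 h in H2O2 and by 0.97 (SE 0.04) in NCS, without overlap between treated and untreated libraries.

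HMGB3, the third member of the family, took an intermediate course. Its values were 10.07, 10.11 and 10.17 in untreated cells and 9.99, 10.02 and 9.93 at 4 h after H2O2. At 4 h after NCS they were 9.67, 9.70 and 9.63, below all of these. At 24 h they were 9.16, 9.14 and 9.08 after H2O2 and 8.93, 8.91 and 8.97 after NCS. The difference at 4 h in H2O2 was -0.14 (SE 0.05, adjusted p = 0.037). This early fall was lost with quantile normalization (adjusted p = 0.157) and without untreated replicate 2 (0.068) or 3 (0.147) or H2O2 replicate 1 (0.067) or 3 (0.139). At 4 h in NCS it was -0.45 (adjusted p = 3.53e-06), and it reached -0.67 at 8 h (-0.75 without the second library) and -0.99 at 24 h in H2O2, and -0.73 and -1.18 in NCS. HMGB1 and HMGB3 have processed pseudogene copies in the genome, so reads that match several copies may have been left out of both.

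**Figure D2:**
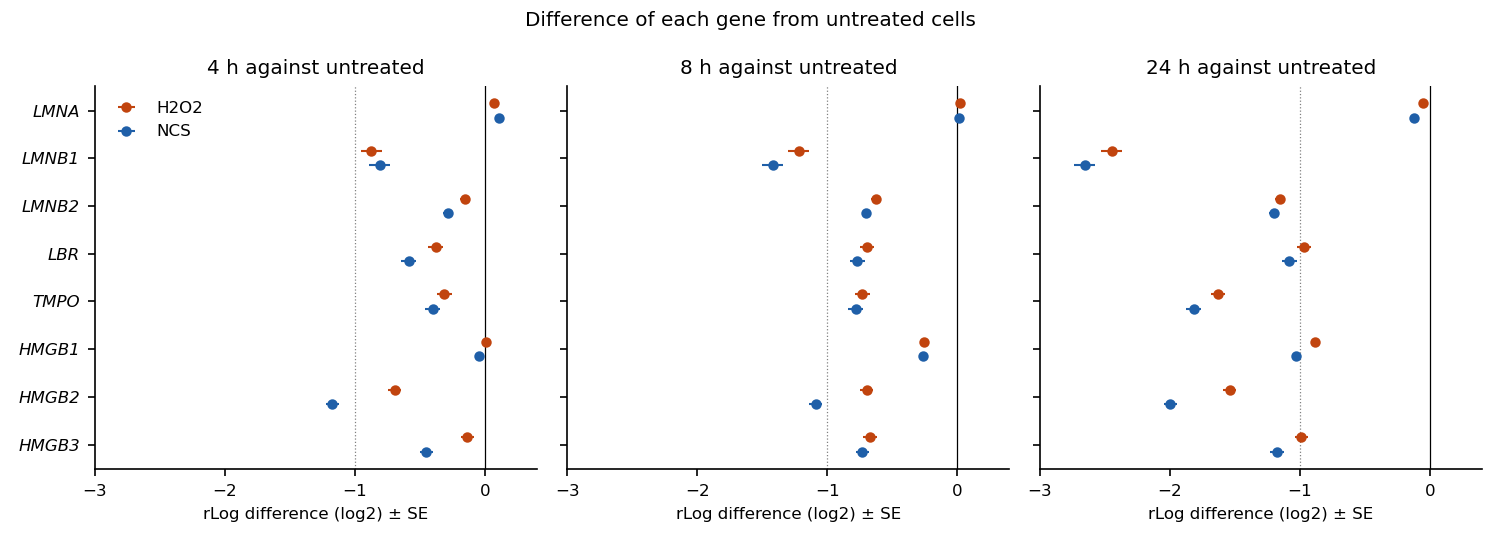
Difference in rLog value (log2, horizontal axis) from untreated cells for each gene (vertical axis) at 4, 8 and 24 h after H2O2 (orange) or NCS (blue). Points are differences of means of 3 libraries, bars are the SE from limma, and the dotted line marks -1, the limit for differential expression. At 24 h LMNB1 stands farthest left at -2.45 and -2.65, and LMNA stays near 0 at -0.05 and -0.12.

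Read against all genes, the number of falling genes was as follows. The counts are a description, since the genes were chosen with earlier results of these data known. In H2O2, 6 of 8 were lower at 4 h, when 19.7% of all genes tested were lower and 26.2% were higher, and none of the 8 was higher. At 8 h, 7 of 8 were lower, against 18.6% lower and 18.8% higher of all genes, and the same number was lower without the second library. At 24 h, 7 of 8 were lower, against 19.9% lower and 20.2% higher. In NCS, 6 of 8 were lower and LMNA was higher at 4 h, when 9.72% of all genes were lower and 7.47% higher. At 8 h, 7 of 8 were lower, against 13.3% lower and 10.5% higher, and at 24 h all 8 were lower, against 18.4% lower and 19.6% higher. The 6 comparisons share the same untreated libraries. Over the 8 genes the 24 h differences had a median of -1.07 (H2O2) and -1.19 (NCS), beside medians of -0.00034 and -0.00014 over all genes tested.

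With the further limit of 1, fewer were called. None of the 8 passed in H2O2 at 4 h, when 0.0406% of all genes did so in that direction. LMNB1 passed at 8 h in H2O2, with or without the second library, against 0.198% of all genes. At 24 h in H2O2, 4 passed, namely LMNB1, TMPO, HMGB2 and LMNB2, against 1.29%. In NCS, HMGB2 passed at 4 h, against 0.127% of all genes, and HMGB2 and LMNB1 passed at 8 h, against 0.274%. At 24 h in NCS, 7 of 8 passed, all but LMNA, against 1.37%.

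Steps within each treatment showed that the fall continued to 24 h. From 4 h to 8 h in H2O2, 6 of 8 genes fell, against 27.7% of all genes, with LMNA and HMGB2 not passing, and the same count was lower without the second library. From 8 h to 24 h in H2O2, 7 of 8 fell, against 23.2% of all genes. LMNA was also lower over that step without the second library, by -0.11 (adjusted p = 0.0060). In NCS, 7 of 8 fell from 4 h to 8 h, against 7.50% of all genes, and 8 of 8 from 8 h to 24 h, against 15.0%. The small NCS steps from 4 h to 8 h of LMNA (-0.10, adjusted p = 0.044) and LBR (-0.18, adjusted p = 0.035) were the least stable. That of LMNA was lost under 8 alternative settings, with adjusted p-values up to 0.310, among them leaving out NCS 4 h replicate 1 or 2 or any of the NCS 8 h replicates. That of LBR was lost under 6, with adjusted p-values up to 0.129, among them leaving out any of the NCS 4 h replicates or NCS 8 h replicate 2 or 3. The largest step from 8 h to 24 h was that of LMNB1, with -1.23 in H2O2 (-1.07 without the second library) and -1.24 in NCS. The H2O2 step of LMNB1 from 4 h to 8 h, -0.35 with all libraries and -0.50 without the second, did not pass in a fit of those groups alone (adjusted p = 0.087).

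Between treatments at the same time, the genes that differed were all lower after NCS. At 4 h, 4 of 8 genes were higher in H2O2 than in NCS, against 26.3% of all genes. These were HMGB2 by 0.48 (SE 0.05, adjusted p = 3.55e-07), HMGB3 by 0.31 (SE 0.05, adjusted p = 5.63e-05), LBR by 0.21 (SE 0.06, adjusted p = 0.0057) and LMNB2 by 0.13 (SE 0.04, adjusted p = 0.0077). The LMNB2 difference was lost with quantile normalization (adjusted p = 0.111) and without NCS replicate 3 (0.055). At 8 h, HMGB2 alone was higher, by 0.39 (adjusted p = 6.88e-06), against 18.7% of all genes, and by 0.32 (adjusted p = 1.02e-05) without the second library. Without that library LBR (-0.03), HMGB1 (-0.03), HMGB3 (-0.02) and TMPO (-0.05) lay on the other side, and none of them passed. At 24 h, 4 of 8 were higher in H2O2, against 11.0% of all genes, namely HMGB2 by 0.46 (adjusted p = 2.28e-06), HMGB1 by 0.15 (adjusted p = 4.88e-04), HMGB3 by 0.19 (adjusted p = 0.013) and TMPO by 0.19 (adjusted p = 0.024). The TMPO difference was lost on leaving out H2O2 replicate 1 or 3 or NCS replicate 1 or 3, with adjusted p-values between 0.053 and 0.10, and that of HMGB3 without H2O2 replicate 1 (0.053). LMNB1 differed by -0.06 at 4 h, 0.20 at 8 h and 0.21 at 24 h (SE 0.08), none of which passed. That SE is the same at each time and includes the spread of the H2O2 8 h libraries. In the fit without the second H2O2 library at 8 h, the SE was 0.04. At 24 h the H2O2 and NCS libraries of LMNB1 did not overlap. Its 8 h difference was 0.05 without the second H2O2 library, ranged up to 0.29 on leaving out other libraries, and passed with medians aligned (0.22, adjusted p = 0.0064), with a mean of at least 5 (adjusted p = 0.019), with the replicate block (0.047) and without H2O2 replicate 1 (0.029) or 3 (0.0091). Its 24 h difference passed with medians aligned (adjusted p = 0.026), with a mean of at least 5 (0.020) and in a fit of the compared groups (0.013).

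**Figure D3:**
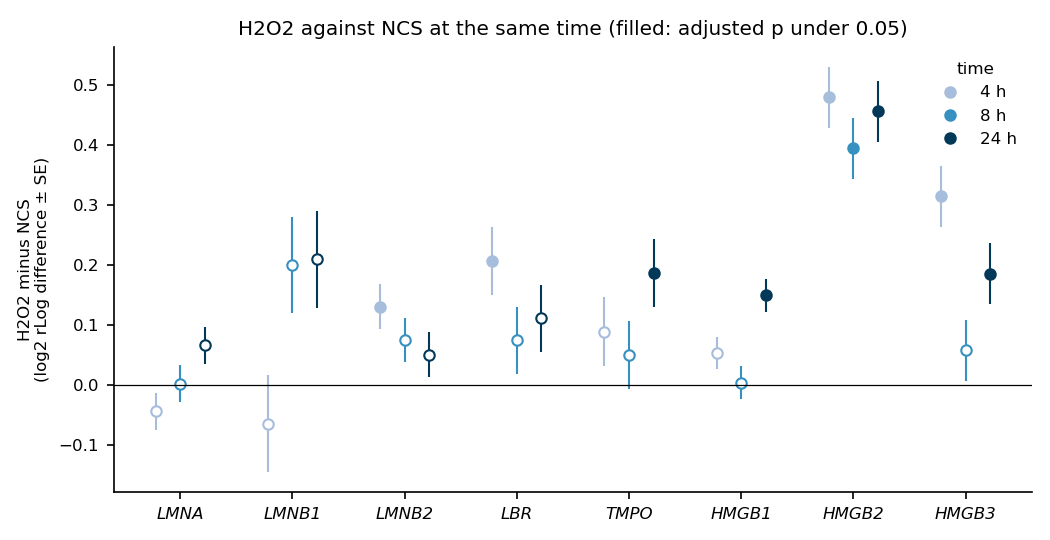
H2O2 minus NCS difference in rLog value (log2, vertical axis) of each gene (horizontal axis) at 4, 8 and 24 h (light to dark blue), with the SE from limma as bars. Filled points have an adjusted p under 0.05. HMGB2 is the one gene filled at all 3 times, at 0.48, 0.39 and 0.46.

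A test of whether the treatments differed in their change from 4 h to 24 h passed for none of the 8 genes with limma, against 39.4% of all genes, and 3 of the 8 had an unadjusted p under 0.05. These were LMNA (0.11, adjusted p = 0.054), HMGB1 (0.10, adjusted p = 0.056) and LMNB1 (0.27, SE 0.11, adjusted p = 0.066), and HMGB2 had a difference of -0.02 (SE 0.07, adjusted p = 0.836). In a fit of only those 4 groups, 5 of 8 passed, so the count depends on the fit. These were LMNB1 (adjusted p = 8.4e-04), HMGB1 (0.0038), LMNA (0.032), HMGB3 (0.042) and LBR (0.049). The share of all genes that passed in that fit is not given here, so this count is not set against all genes. The spread in the main fit comes from all 7 groups, among them H2O2 at 8 h with the library that stood apart.

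Transcript length was used to compare levels between genes, as the untreated rLog value less the log2 of the main transcript's length in kilobases. On that scale LMNA was highest at 12.8, followed by LMNB2 at 10.6 and HMGB1 at 10.5, TMPO at 9.96 and HMGB2 at 9.87. LMNB1 stood at 9.01, LBR at 8.77 and HMGB3 at 8.28. The gene-level table does not separate lamin A from lamin C, or the LAP2 isoforms of TMPO.

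The genes of most similar pattern were sought for each of the 8 over the 21 libraries. The highest Pearson correlations among 11681 genes with a mean of at least 5 were found for LMNB1 with CENPJ (0.991), TOPBP1 (0.990) and DBF4B (0.990), and for LMNB2 with SPAG5 (0.994), H2AFX (0.993) and ANLN (0.993). LBR was closest to SMC3, BUB1B and C15orf23 (each 0.984), and TMPO to the condensin gene NCAPH (0.996), TACC3 (0.995) and PBK (0.994). HMGB1 was closest to HMGN2 (0.997), another nucleosome-binding protein gene, CDK1 (0.994) and MCM7 (0.993). HMGB2 was closest to CDCA8 (0.990), CDCA2 (0.987) and TTK (0.985), and HMGB3 to BUB1 (0.990), DLGAP5 (0.989) and HMMR (0.989). LMNA had lower values with its nearest genes, RALY (0.934), PFKP (0.926) and RBM42 (0.926). The libraries share 7 groups, so the 21 points are not independent, and the values are a description.

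Seurat's lists of S-phase and G2/M genes fell as a whole at 24 h. The published G2/M list contains HMGB2, TMPO and LBR, which were taken out here. Of the other 51 G2/M genes all 51 were lower at 24 h in both treatments, with medians of -1.63 in H2O2 and -1.93 in NCS, and the deepest fall was that of the proliferation marker MKI67 (-2.51 and -2.73). Of the 43 S-phase genes all 43 were lower, with medians of -1.30 and -1.31, and CDCA7 fell deepest (-1.90 and -1.91). At 4 h, 45 of 51 G2/M genes were lower in H2O2 and 50 in NCS, and 22 of 43 S-phase genes were lower in H2O2 and 12 in NCS. The shares of all genes lower at 4 h were 19.7% in H2O2 and 9.72% in NCS. The part of these cell cycle genes in the falls of the lamin and HMGB genes was not tested. CDKN1A, which encodes the CDK inhibitor p21, rose by 1.57 in H2O2 and 1.48 in NCS at 24 h.

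Other genes listed as lamin partners moved in both directions. The list is not limited to the inner nuclear membrane and also holds genes of chromatin proteins, linkers and other binding partners. Of 20 tested lamin partners, 13 were lower and 2 higher (LEMD2 and SYNE1) at 24 h in H2O2, with a median of -0.29, and 15 were lower and 3 higher (with TOR1AIP2) in NCS, with a median of -0.23. SYNE2, which encodes the linker nesprin-2, fell deepest, with differences of -1.10 in H2O2 and -1.17 in NCS, and SYNE1, which encodes nesprin-1, rose most, by 0.37 and 0.40. At 4 h, 6 were lower and 3 higher in H2O2, against 19.7% lower and 26.2% higher of all genes. In NCS at 4 h, 5 were lower and 2 higher, against 9.72% lower and 7.47% higher. The 7 genes listed for CaaX processing include enzymes that farnesylate, cleave and methylate the end of prelamin A and the B-type lamins. Of these 7, 2 were lower (ICMT with FNTB in H2O2 and with RCE1 in NCS) and FNTA was higher at 24 h in each treatment. Of all genes tested, 19.9% were lower and 20.2% higher at 24 h in H2O2, and 18.4% and 19.6% in NCS. The counts for CaaX processing are near these shares. ICMT, the carboxyl methyltransferase, differed by -0.60 and -0.54, and FNTA, a farnesyltransferase subunit, by 0.23 and 0.11.

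Of 17 other tested HMG proteins and proteins with an HMG box, 11 were lower and 2 higher (HMGA2 and HMGXB3) at 24 h in H2O2, with a median of -0.32, and 12 were lower and 2 higher (again HMGA2 and HMGXB3) in NCS, with a median of -0.23. HMGN2 fell deepest, with differences of -1.01 in H2O2 and -1.10 in NCS, against 4 h differences of 0.03 and -0.05, neither of which passed. HMGA2, a DNA-bending protein often found in senescent chromatin foci, rose most, by 0.41 and 0.22. Of all genes tested, 19.9% were lower and 20.2% higher at 24 h in H2O2, and 18.4% and 19.6% in NCS.

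Further senescence markers did not all move one way. Of 19 tested, 10 were higher and 3 lower at 24 h in H2O2, with a median of 0.20, and 9 were higher and 2 lower in NCS, with a median of 0.13. The stress cytokine gene GDF15 rose most, by 3.25 in H2O2 and 2.40 in NCS. The 3 lower in H2O2 were CDKN2A (-0.32), IGFBP3 (-0.72) and IGFBP5 (-0.81), and those lower in NCS were CDKN2A (-0.25) and IGFBP3 (-0.18). Of all genes tested, 20.2% were higher and 19.9% lower at 24 h in H2O2, and 19.6% and 18.4% in NCS. CDKN2A, IGFBP3, LEMD2, TOR1AIP2, FNTB, RCE1, HMGXB3, KRT7, KRT8, NES and COL1A1 were named after their values were seen.

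**Figure D4:**
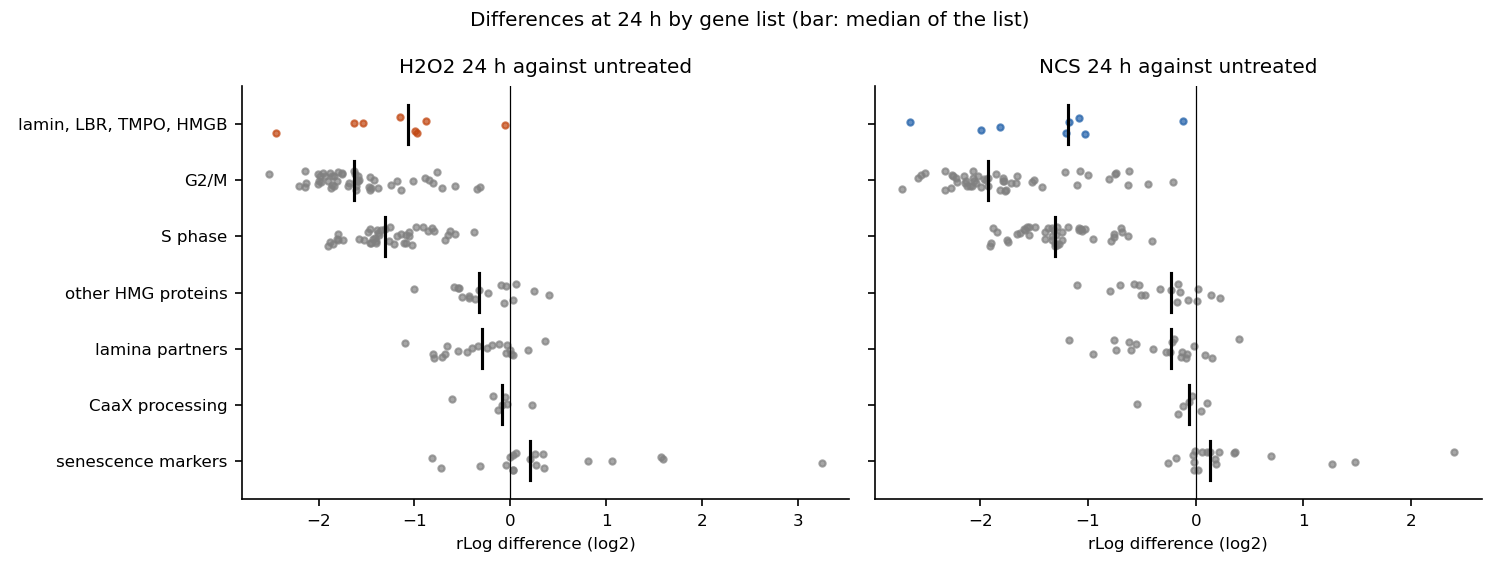
Differences in rLog value (log2, horizontal axis) from untreated cells at 24 h after H2O2 (left) or NCS (right) for the genes of each list (vertical axis). Points are genes, coloured for the 8 lamin, LBR, TMPO and HMGB genes and grey for the other lists, and bars are list medians. The medians of the 8 genes, -1.07 and -1.19, lie between those of the S-phase list (-1.30 and -1.31) and of the lamina partners (-0.29 and -0.23).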

How the data were processed

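The deposited table holds rLog values on a log2 scale, which the authors made from gene counts over all libraries. The submitters' processing notes name HISAT2, HTSeq, DESeq2 and the build hg19, and their versions and the annotation are not given in the sources used here. The library kit was stranded. No read counts were used, so no counting interval was calculated.

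From these values, 19694 genes with any value other than 0 were tested with limma 3.58.1 in R 4.3.3 (1 fit of 7 groups, mean-variance trend, Benjamini-Hochberg adjustment). The fit was tested on simulated data. Single values were also compared by two-sided exact permutation tests. Figures and tables were made in Python 3.11.15 with matplotlib 3.10.9, scipy 1.17.1 and pandas 2.3.3. The 8 genes and the lists were chosen with earlier results of these data known. Besides the 8, the text names CDKN1A, the largest rise and the deepest fall of each list at 24 h, the 3 genes of most similar pattern and pseudogene rows.

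The alternatives were aligned medians, quantile normalization, a mean of at least 5, a fit of the compared groups only, a replicate block, no mean-variance trend, each library left out, and a limit of 0.58. Libraries with the same replicate number had deviations from their group means with a mean correlation of 0.0274 (-0.149 to 0.213 over 63 pairs), against -0.0137 for other pairs, so the numbers were not treated as pairing libraries.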

Additional observations from a re-analysis of the deposited data

How the results depend on the processing

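Of 112 differences of the 8 genes, 79 passed the test, and 71 of these kept their direction and passed under every alternative. None of the 79 reversed. The other 8 are named with their values in the report. With a limit of 0.58 in place of 1, the number differentially expressed was 2 in H2O2 at 4 h, 6 at 8 h and 7 at 24 h, and 3 in NCS at 4 h and 6 at 8 h. The number that differed between H2O2 and NCS at 8 h was 1, and it was 3 with medians aligned, 2 with a mean of at least 5, 2 with the replicate block, and 1 to 3 on leaving out a library (2 without H2O2 replicate 1 and 3 without replicate 3). At 24 h leaving out a library gave 2 to 4, with 2 without H2O2 replicate 1. Some alternatives added genes at 24 h. A limma fit of the compared groups added LBR (adjusted p = 0.029) and LMNB1 (0.013). LMNA was added with quantile normalization (adjusted p = 0.0077) or without H2O2 replicate 3 (0.043). At 4 h, the fit of the compared groups added HMGB1 (adjusted p = 0.017) and TMPO (0.037). The number with an interaction of treatment and time was 0, and it was 1 with medians aligned, 3 with quantile normalization, 3 with a mean of at least 5, 5 in a fit of the compared groups, 1 with the replicate block and 0 to 1 on leaving out a library (1 without H2O2 4 h replicate 1, H2O2 24 h replicate 3, NCS 4 h replicate 3 or NCS 24 h replicate 3). The cause was not tested. The shares of all genes under these alternatives, the limit of 0.58 among them, are not given here. These counts are therefore not set against all genes.

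Differences that changed sign had not passed the test. For HMGB1 in H2O2 at 4 h the value was -0.0059 with medians aligned, -0.037 with quantile normalization and -0.0058 to 0.020 on leaving out a library. For LMNA it was -0.0092 to 0.052 in H2O2 at 8 h, and -0.0082 with medians aligned and -0.011 to 0.032 on leaving out a library in NCS at 8 h. For H2O2 against NCS at 8 h, leaving out a library gave -0.023 to 0.037 for LMNA, -0.025 to 0.14 for LBR, -0.031 to 0.034 for HMGB1, -0.019 to 0.11 for HMGB3 and -0.052 to 0.11 for TMPO, and quantile normalization gave -0.023 for HMGB1. For HMGB2 from 4 h to 8 h in H2O2 it was 0.011 with medians aligned and -0.073 to 0.044 on leaving out a library, and for its interaction -0.060 to 0.014.

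The replicate block also ended the call of LMNA from 4 h to 8 h in NCS (adjusted p = 0.057) and added LMNB1 in H2O2 against NCS at 8 h and in the interaction (adjusted p = 0.047 and 0.048). Whether libraries with the same replicate number were prepared together is not given in the sources used here. The block changed no other call of the 8 genes. Depth is unknown. The limma p-values measure only the spread between replicates within groups, pooled over the 7 groups and drawn toward the trend over all genes.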

Other observations

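Of 9 tested receptors and partners of extracellular HMGB1, CXCL12 and TLR4 were lower and TLR2 higher at 24 h in H2O2, and CXCL12 and TLR4 were lower and none higher in NCS. The chemokine gene CXCL12, whose product binds HMGB1, fell deepest, with differences of -0.68 in H2O2 and -0.17 in NCS. TLR4 was named after its values were seen. TLR2 rose by 0.29 in H2O2, and its difference in NCS was 0.03 (adjusted p = 0.844). Of all genes tested, 19.9% were lower and 20.2% higher at 24 h in H2O2, and 18.4% and 19.6% in NCS. The counts for the receptors and partners are near these shares or below them.

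The pseudogene HMGB3P1 was the single pseudogene row of the 8 genes in the table. Its mean rLog value was -2.31, the lowest value in the table to this precision, and none of the 6 differences from untreated cells passed the test.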
